A study of Mus musculus with 22 samples.

Results

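The genes of the respiratory chain were examined in polyadenylated RNA from microglia, the resident macrophages of the brain, which had been gated as CD11b+ CD45mid CD11a- by flow cytometry. Members were chosen by symbol: nuclear subunits of complexes I to V (Nduf, Sdh, Uqcr, Cox and Atp5 names) and the mt-Nd, mt-Co, mt-Atp and mt-Cytb genes of the mitochondrial chromosome. The rule matched 89 of the 54532 rows of the gene table, which bear 88 distinct symbols, because Atp5o stands under 2 identifiers. Of these rows 76 were nuclear, assigned to complexes by symbol alone. Complex I had 36 (Ndufa4 among them), complex II 4, complex III 8, complex IV 10 and complex V 18. The other 13 were mitochondrial (7 in complex I, 1 in complex III, 3 in complex IV and 2 in complex V). The filter on low counts kept 85 rows, 75 nuclear and 10 mitochondrial. It removed the second Atp5o identifier, which had no counts, and mt-Nd3, mt-Nd4l and mt-Atp8, with 16, 50 and 61 counts over all libraries.

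All 22 libraries came from male C57BL/6J mice aged to 17.5 months, in a model of Gulf War illness. Mice of the GW groups had been given the cholinesterase inhibitor pyridostigmine bromide at 0.7 mg/kg together with the insecticide permethrin at 200 mg/kg on 10 days from 10 weeks of age, and control mice had received vehicle. In 2 groups the GW mice were also given cannabidiol (CBD, 30 mg/kg, a plant cannabinoid), daily for 28 days and then every 2 days over 2 weeks. Lipopolysaccharide (LPS, 0.33 mg/kg, from the outer membrane of E. coli) or phosphate-buffered saline (PBS) was injected 24 hours before collection. Controls formed the groups Ctrl-PBS (n = 4) and Ctrl-LPS (n = 4), exposed mice without CBD the groups GW-PBS (n = 4) and GW-LPS (n = 3), and exposed mice with CBD the groups GW-CBD-PBS (n = 3) and GW-CBD-LPS (n = 4). A control group given CBD was not analysed here, so every CBD comparison was made in exposed mice. The labels do not say that each library was 1 mouse, so p-values here reflect how libraries varied, which may be technical in part.

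The respiratory chain sits in the inner mitochondrial membrane. Complex I takes electrons from NADH and complex II from succinate, both hand them to ubiquinone, complex III passes them on to cytochrome c, and complex IV gives them to oxygen. Protons pumped by complexes I, III and IV drive complex V, the ATP synthase. Complex II is encoded wholly in the nucleus, whereas the other complexes join nuclear subunits with core subunits encoded in mitochondrial DNA. Macrophages and microglia are known to shift the balance between respiration and glycolysis when they are activated.

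The mitochondrial members differ in how far their sequences are unique, which bears on their counts, so 2 pairs of sequences are shown first. Each pair sets 60 bases of a mitochondrial gene beside the matching bases of its closest nuclear copy, both from the GENCODE M21 transcripts of GRCm38. The mt-Nd3 stretch lies at chrM:9459-9518 (+) and its copy in Gm28438 at chr1:24613060-24613119 (-). The mt-Cytb stretch lies at chrM:14705-14764 (+) and its copy in Gm11410 at chr4:80004549-80004608 (+). Capitals mark the bases at which the 2 sequences of a pair differ, 1 in the mt-Nd3 pair and 6 in the mt-Cytb pair.
mt-Nd3: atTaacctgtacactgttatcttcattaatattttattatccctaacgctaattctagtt
Gm28438: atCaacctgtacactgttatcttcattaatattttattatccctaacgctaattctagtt
mt-Cytb: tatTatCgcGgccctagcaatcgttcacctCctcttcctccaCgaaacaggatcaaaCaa
Gm11410: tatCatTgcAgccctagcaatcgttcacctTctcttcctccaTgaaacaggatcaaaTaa

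Over its whole aligned length of 345 bases the copy Gm28438 matched mt-Nd3 at 99.7%, with the single substitution T3C (positions counted from the first base of mt-Nd3, the mitochondrial base first). Copies of mt-Co2, mt-Atp6, mt-Co3, mt-Nd3, mt-Nd4l and part of mt-Nd4 lie together on the minus strand of chromosome 1, between 24611535 and 24615565. mt-Co2 (cytochrome c oxidase subunit 2) matched Gm28661 at 100% over 681 bases. mt-Atp6 (the proton channel subunit of ATP synthase) matched Gm10925 at 100% over 678 bases. mt-Co3 matched Gm28437 at 100% over 783 bases. As a measure of uniqueness, each mitochondrial gene was cut into all its windows of 150 bases, the read length. The share of windows found exactly in a nuclear transcript was 99.4% for mt-Co2, 99.4% for mt-Atp6, 99.8% for mt-Co3, 97.0% for mt-Nd3 and 98.0% for mt-Nd4l. It was 59.2% for mt-Nd4 and 23.6% for mt-Co1. It was 0% for mt-Nd1, mt-Nd2, mt-Nd5, mt-Nd6 and mt-Cytb. mt-Atp8 also had no such window, but its place lies in an interval of 233 bases between copies on chromosome 1, equal in size to that on the mitochondrial chromosome.

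The levels of the mitochondrial members were lowest where nuclear copies covered nearly the whole gene, and in mt-Atp8. Levels in CPM per kb (counts scaled to library size and divided by transcript length, mean over 22 libraries) were 476.8 for mt-Cytb, 268.9 for mt-Co1 and 265.1 for mt-Nd1. They were 88.5 for mt-Nd4, 76.67 for mt-Nd5, 75.34 for mt-Nd2 and 48.66 for mt-Nd6. The 5 genes whose windows were nearly all found in nuclear transcripts stood far lower, at 3.77 CPM per kb for mt-Co3, 3.40 for mt-Atp6, 2.00 for mt-Co2, 0.215 for mt-Nd4l and 0.0620 for mt-Nd3. mt-Atp8 was at 0.383 CPM per kb. Over all libraries the closest nuclear copies of those 5 genes held counts as well. These were 672 in Gm28438 (16 in mt-Nd3), 62 in Gm10222 (50 in mt-Nd4l) and 2004 in Gm10925 (1765 in mt-Atp6). Gm28437 had 2083 (2215 in mt-Co3) and Gm28661 had 731 (1047 in mt-Co2). For the partly covered mt-Nd4 and mt-Co1, the closest copies had 149 and 55, against 93380 and 316917. How the authors' counting treated reads that match 2 places is not given in the sources used here. Its part in these low levels was not tested. The mitochondrial sum below therefore rests on mt-Cytb, mt-Co1, mt-Nd1, mt-Nd2, mt-Nd4, mt-Nd5 and mt-Nd6. Medians and counts of mitochondrial members below, by contrast, give mt-Co2, mt-Co3 and mt-Atp6 the same weight as the others.

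**Figure D1:**
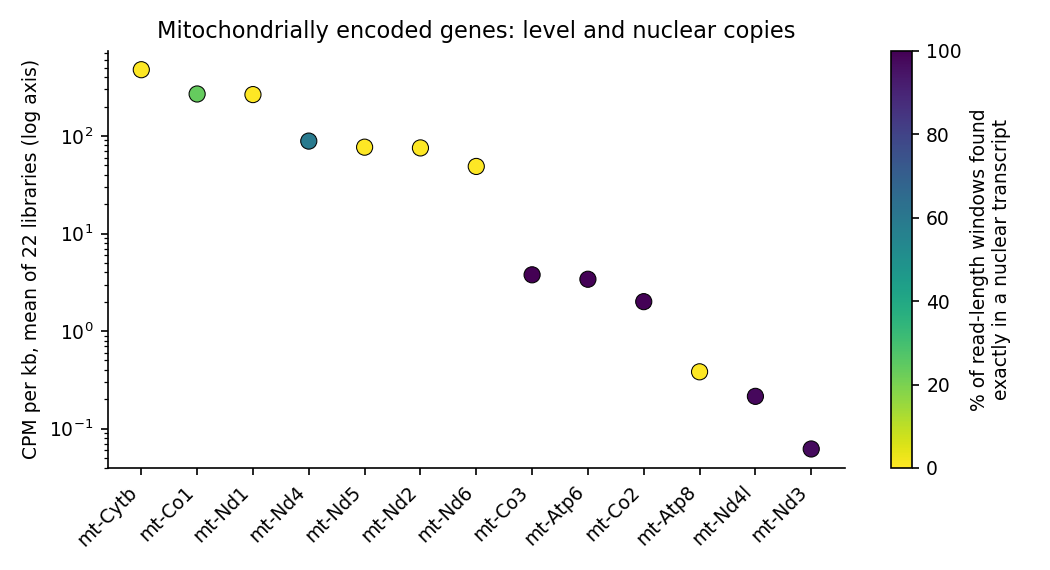
Level of each of the 13 mitochondrial members (CPM per kb of transcript, mean of 22 libraries, log axis), ordered by level and coloured by the percentage of 150-base windows found exactly in a nuclear transcript. The genes with 97.0% or more of their windows in nuclear transcripts lie at 3.77 CPM per kb or lower, as does mt-Atp8, and the others lie at 48.66 or higher.

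Promoters are shown next because some nuclear members hold motifs of NRF1 and the ETS factor GABPA, factors known to drive respiratory genes. RefSeq promoters (250 bases before to 50 after the start, GRCm38.p6) were found for 63 nuclear member rows. Both strands were searched for the letters of each motif, and a match describes letters, not binding. The NRF1 motif (GCGCA, any base, then GCGC) stood in 16 of the 63 member promoters (25.4%), against 4.78% of all 27025 promoters and 10.0% of the 10868 promoters of tested genes. CCGGAAG (ETS, GABPA) stood in 15 (23.8%), against 9.12% and 17.6%. AAGATGGCG (YY1) stood in 6 (9.52%), against 1.49% and 3.06%. CACGTG (the E-box) also stood in 9.52%, against 7.24% and 10.0%. TATAAA (the TATA box) stood in 7.94%, against 14.2% and 7.56%. CAAGGTCA (ERRA) stood in 6.35%, against 1.53% and 1.06%. For each complex, the printed promoter belongs to the member with the smallest p for LPS in GW-CBD mice among those with an NRF1 or ETS match outside annotated exons. All 5 lie on the minus strand: Ndufs5 (an accessory subunit of complex I) at chr4:123718230-123718329, Sdhd (a membrane anchor of complex II) at chr9:50603850-50603909, Uqcr11 (complex III) at chr10:80406833-80406932, Cox6a1 (complex IV) at chr5:115349030-115349129 and Atp5e (complex V) at chr2:174464149-174464248. Capitals mark the NRF1 match in Ndufs5, 2 NRF1 matches in Cox6a1, and the ETS match, read on either strand, in Sdhd, Uqcr11 and Atp5e.
Ndufs5: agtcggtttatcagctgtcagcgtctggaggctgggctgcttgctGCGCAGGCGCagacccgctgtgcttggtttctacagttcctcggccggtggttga
Sdhd: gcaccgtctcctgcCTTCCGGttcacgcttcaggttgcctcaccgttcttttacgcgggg
Uqcr11: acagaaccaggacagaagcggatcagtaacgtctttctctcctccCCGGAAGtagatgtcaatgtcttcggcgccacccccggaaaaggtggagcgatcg
Cox6a1: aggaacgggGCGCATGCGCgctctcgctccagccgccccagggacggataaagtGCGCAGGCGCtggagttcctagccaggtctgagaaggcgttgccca
Atp5e: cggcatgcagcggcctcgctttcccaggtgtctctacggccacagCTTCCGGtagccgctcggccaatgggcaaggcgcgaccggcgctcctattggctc

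Library totals ran from 28676930 to 40458326 counts, and 0.107% to 0.270% of them fell on the mitochondrial chromosome. Microglial markers summed to between 21350 and 45550 CPM and were present in every library. Neutrophil markers summed to 26670 CPM in Ctrl-PBS replicate 3, 2680 in Ctrl-LPS replicate 1 and 1660 in GW-PBS replicate 1, against at most 332 in the other libraries. Summed erythroid markers were highest, at 1568 CPM, in GW-PBS replicate 1. Results that changed most when these libraries were left out are given with and without them. In these bulk samples fewer cells of a type and less RNA per cell cannot be told apart.

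Within each nuclear complex the transcript levels were spread widely. In complex V, the catalytic beta subunit Atp5b was highest at 429.6 CPM per kb, and Atp5s, a coupling factor outside the core enzyme, was lowest at 8.88. In complex IV, the levels ran from 355.0 CPM per kb for Cox4i1 to 40.45 for Cox7b. In complex III, they ran from 229.3 for the core protein Uqcrc1 to 53.2 for its partner Uqcrc2. In complex II, the iron-sulfur subunit Sdhb was at 197.9 and the membrane anchor Sdhc at 38.13 CPM per kb. In complex I, Ndufs8, an iron-sulfur subunit, was at 158.6 and Ndufb2 at 1.57 CPM per kb. Ndufb2 had 2921 counts over all libraries and was given a transcript length of 2413 bp. Copies of nuclear members elsewhere in the genome were not searched for. In these counts the mitochondrial mt-Cytb, at 476.8, stood close to Atp5b per length. Windows were searched in annotated nuclear transcripts only, and a loss of mitochondrial reads to other nuclear copies was not tested.

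The summed nuclear members (CPM of library totals) were lowest in GW-CBD-PBS, 5799 ± 376 (SD, n = 3), and highest in Ctrl-LPS, 8581 ± 1200 (n = 4). Between them lay Ctrl-PBS at 6994 ± 571 (n = 4), GW-PBS at 7478 ± 1400 (n = 4), GW-LPS at 7561 ± 1100 (n = 3) and GW-CBD-LPS at 8023 ± 1500 (n = 4). By library the nuclear sums were 6519, 7780, 7046 and 6632 in Ctrl-PBS and 9872, 7263, 7919 and 9272 in Ctrl-LPS. They were 9413, 6136, 6882 and 7483 in GW-PBS and 8205, 6293 and 8185 in GW-LPS. In CBD-treated mice they were 5433, 6184 and 5779 with PBS and 7842, 7100, 6956 and 10190 with LPS. Replicate 1 of GW-PBS and replicate 4 of GW-CBD-LPS stood above the rest of their groups. In the order of group means the 3 GW-CBD-PBS libraries lay below all Ctrl-PBS libraries, and every other neighbouring pair of groups overlapped.

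The summed mitochondrial members had a similar range across groups in relative terms. They were 1505 ± 296 CPM (SD, n = 4) in Ctrl-PBS, 1913 ± 458 (n = 4) in Ctrl-LPS, 1534 ± 563 (n = 4) in GW-PBS, 1659 ± 358 (n = 3) in GW-LPS, 1309 ± 123 (n = 3) in GW-CBD-PBS and 1463 ± 216 (n = 4) in GW-CBD-LPS. Replicate 1 of GW-PBS was again the highest of its group, at 2291 CPM, against 938.8 to 1524 in the others. The log2 ratio of the nuclear to the mitochondrial sum lay between 2.15 in GW-CBD-PBS and 2.45 in GW-CBD-LPS as group means. With LPS in GW-CBD mice this ratio was 0.30 ± 0.14 (SE) higher, and the libraries of both groups overlapped.

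**Figure D2:**
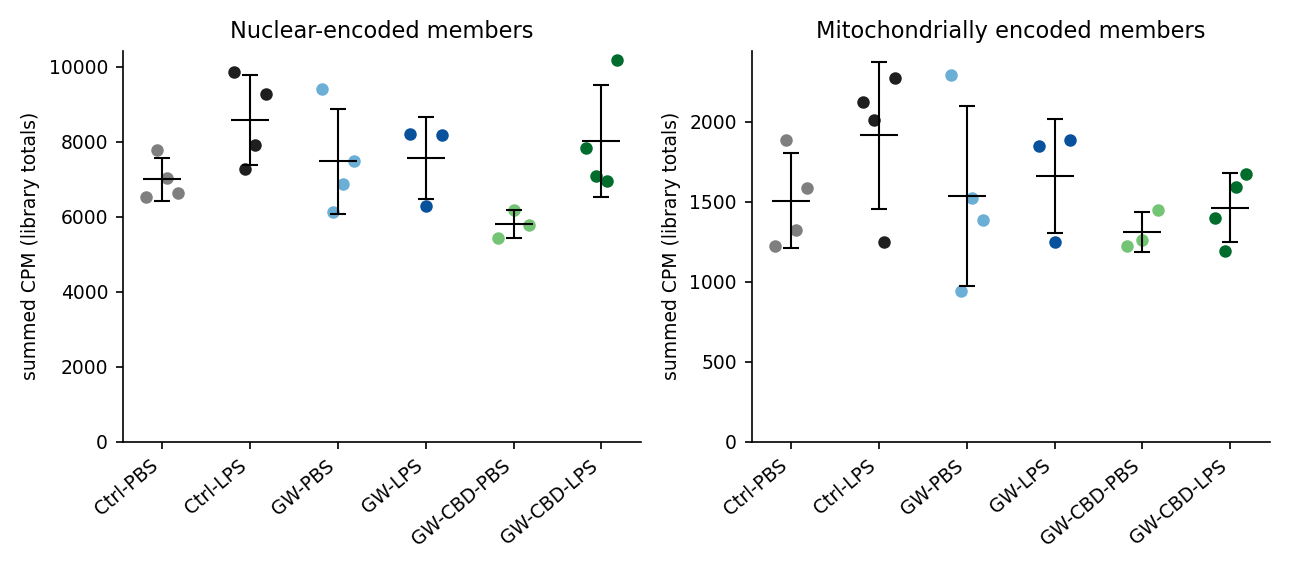
Summed CPM (library totals) of nuclear members (left) and mitochondrial members (right) in each library of the 6 groups, with points for libraries, long bars for means and whiskers for SD. The 3 GW-CBD-PBS libraries hold the lowest nuclear group mean, 5799, and GW-PBS replicate 1 stands highest in its group in both panels.

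LPS in control mice was the comparison in which members passed the test. Transcripts of 9 members rose and 1 fell out of 85, by edgeR's quasi-likelihood test with an adjusted p under 0.05 over 16554 genes. Among all tested genes 10.8% rose and 9.62% fell, so the share of members that rose was near the background. The members moved in 1 direction: 83 of 85 log2 fold changes were positive, against 48.8% of all genes. Their median was 0.44, against -0.02 for all genes. At an unadjusted p under 0.05 stood 31 members, where 33.5% of all genes did. In 8 members every Ctrl-LPS library lay above every Ctrl-PBS library (12.2% of all genes), and in 1 every library lay below (10.8%). limma voom with quality weights called 47 members higher (15.4% of all genes) and 1 lower (11.8%).

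The clearest changes were in the catalytic parts of complexes V and I. Atp5b (ENSMUSG00000025393, GRCm38 chr10:128083273-128090391), the catalytic beta subunit, was at 662.6, 673.6, 726.4 and 682.2 CPM (TMM-scaled) in Ctrl-PBS and at 1227, 896.2, 1069 and 1045 in Ctrl-LPS. All 4 LPS libraries lay above all 4 PBS libraries, a log2 fold change of 0.63 ± 0.11 (SE, adjusted p = 0.000497, edgeR). Its partner Atp5a1, the alpha subunit, went from 512.4, 504.5, 511.5 and 522.8 CPM to 745.4, 606.1, 669.7 and 751.2. Those groups were apart as well, with a log2 fold change of 0.43 ± 0.10 (adjusted p = 0.0034, edgeR). Ndufv1 (ENSMUSG00000037916, chr19:4007384-4012806), the subunit of complex I that binds NADH, was at 87.97, 89.14, 92.01 and 86.09 CPM with PBS and at 167.0, 105.9, 113.5 and 142.3 with LPS. Again no libraries overlapped, and its log2 fold change was 0.57 ± 0.12 (adjusted p = 0.00186, edgeR). Atp5b, Atp5a1 and Ndufv1 passed the threshold in all 8 other processing settings and with each of the 8 libraries left out in turn.

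Each of the other 7 calls was lost under at least 1 other setting. Ndufa12 (ENSMUSG00000020022, chr10:94198720-94221443), an accessory subunit of complex I, was at 18.76, 38.35, 16.73 and 15.91 CPM in Ctrl-PBS and at 83.28, 56.18, 39.53 and 83.26 in Ctrl-LPS. Every LPS library was higher, replicate 2 of Ctrl-PBS being close to the lowest of them. The log2 fold change was 1.55 ± 0.39 (adjusted p = 0.00697, edgeR). Uqcrc1, a core protein of complex III, rose by 0.35 ± 0.12 on the log2 scale (adjusted p = 0.0483, edgeR), a call kept in 3 of 8 settings. Of the mitochondrial members mt-Nd6 (chrM:13552-14070), on the opposite strand from the others, rose by 1.01 ± 0.34 (adjusted p = 0.0405, edgeR). Its values were 18.94, 25.16, 18.43 and 22.03 CPM with PBS and 53.57, 35.11, 23.2 and 58.85 with LPS, so 1 LPS library lay within the PBS range. Since the strand setting of the counting is not given in the sources used here, reads of the other strand cannot be told apart from those of mt-Nd6. Atp5s fell by 0.54 on the log2 scale (SE 0.17, adjusted p = 0.03, edgeR), from 14.65, 18.07, 14.28 and 16.72 CPM to 7.963, 11.52, 12.68 and 11.65, with no overlap.

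3 further members were called, named here after their values were seen. Ndufa10 (complex I) rose by 0.48 ± 0.13 (adjusted p = 0.0152), Atp5d (the delta subunit of complex V) by 0.70 ± 0.23 (adjusted p = 0.0347) and Atp5g1 (a gene for subunit c of the rotor ring) by 0.85 ± 0.30 (adjusted p = 0.0464), all by edgeR. By complex, 3 of 36 nuclear members of complex I rose, none of 4 in complex II and 1 of 8 in complex III. In complex IV none of 10 rose and in complex V 4 of 17, where 10.8% of all genes rose. Whether the complexes differ was not tested. All 10 nuclear members of complex IV had positive values, between 0.39 and 0.64, and the smallest adjusted p among them was 0.104, of Cox5a. Sdha, the flavoprotein of complex II, gave 0.07 ± 0.11 (adjusted p = 0.666). The mitochondrial median was 0.44 and the nuclear median 0.43. Without Ctrl-LPS replicate 1, 4 members were called (7.15% of all genes rose) and the nuclear median was 0.29. Without the 3 libraries with raised neutrophil markers 3 members rose (7.11% of all genes did): Atp5b, Atp5a1 and Ndufv1. Summed microglial markers were lower in every Ctrl-LPS library (21350 to 31140 CPM) than in any Ctrl-PBS library (34580 to 45550), and so were endothelial markers (13.12 to 28.87 against 35.42 to 59.45). Their part in these results was not tested.

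**Figure D3:**
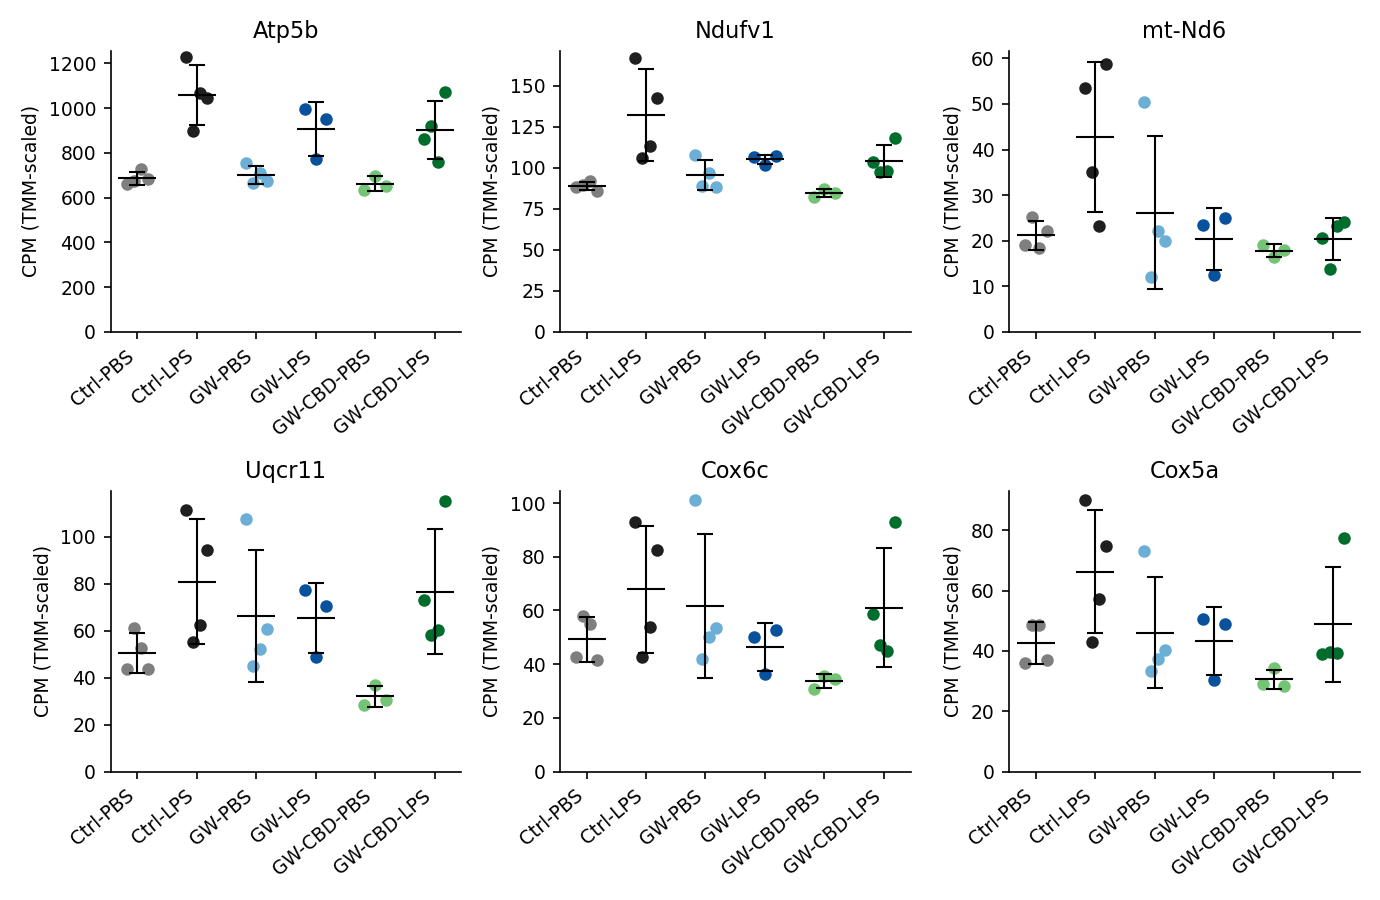
TMM-scaled CPM of 6 members in each library of the 6 groups, with points for libraries, long bars for means and whiskers for SD. Atp5b and Ndufv1 were higher in every Ctrl-LPS library than in any Ctrl-PBS library, whereas Uqcr11 and Cox6c were lowest in the 3 GW-CBD-PBS libraries.

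LPS in GW mice gave no called member with edgeR, against 4.45% of all genes higher and 5.07% lower. DESeq2 called 1 member higher (Atp5b, 6.33% of all genes) and limma voom 2 (Atp5b and Atp5a1, 10.9% of all genes). At an unadjusted p under 0.05 edgeR had 5 members (24.3% of all genes). Negative log2 fold changes were seen in 75 of 85 members (52.9% of all genes), with a median of -0.20 against -0.04 for all genes. Atp5b nevertheless was at 754.2, 665.6, 710.9 and 675.4 CPM in GW-PBS and at 997.0, 771.1 and 953.7 in GW-LPS. These did not overlap, and the log2 difference was 0.37 ± 0.12 (adjusted p = 0.0569, edgeR). Ndufs1, the largest subunit of complex I, was the other member with every LPS library above every PBS library (9.22% of all genes), at 0.37 ± 0.13 (adjusted p = 0.0844, edgeR). Its values were 51.82, 72.61, 80.49 and 60.57 CPM with PBS and 91.9, 83.68 and 81.3 with LPS. The sign of the median depended on the libraries and the tool. Without GW-PBS replicate 1 the nuclear median was 0.05, with 49 of 75 members positive, and the mitochondrial median was 0.16. Without GW-LPS replicate 3 the nuclear median was -0.06 (-0.07 for all genes), with 29 of 75 positive, and the mitochondrial median was -0.01. Without each of the other 5 libraries the nuclear median lay between -0.33 and -0.24. limma voom gave a nuclear median of 0.08, with 54 of 75 positive, and a mitochondrial one of 0.17. Summed microglial markers were lower in every GW-LPS library (28130 to 33110 CPM) than in any GW-PBS library (34620 to 40570), as were erythroid markers (65.78 to 137.2 against 258.9 to 1568) and endothelial ones (14.35 to 21.95 against 25.56 to 45.63). Their part in these results was not tested.

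LPS in GW-CBD mice gave higher values for nearly all nuclear members, below the test's threshold. Positive values were seen in 82 of 85 members, against 50.0% of all genes. With edgeR no member was called, where 0.393% of all genes were called higher. At an unadjusted p under 0.05, 52 of 75 nuclear members were higher and 0 of 10 mitochondrial ones (7.52% of all genes). In 51 nuclear members and 1 mitochondrial member every LPS library lay above every PBS library (8.37% of all genes). The median log2 difference was 0.64 for nuclear and 0.19 for mitochondrial members, against 0.00 for all genes, and whether these 2 differ was not tested. DESeq2 called 12 members higher (1.79% of all genes) and limma voom 63 (12.5%). Without the 3 libraries with raised neutrophil markers edgeR called 3 higher (0.867% of all genes): Uqcr11, Atp5e and Atp5k.

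Uqcr11 (ENSMUSG00000020163, chr10:80402997-80406830), the small complex III subunit whose promoter is shown above, came closest to the threshold. It was at 28.55, 36.9 and 30.51 CPM in GW-CBD-PBS and at 72.91, 58.09, 60.26 and 115.2 in GW-CBD-LPS. Each LPS library exceeded each PBS library, by a log2 difference of 1.26 ± 0.30 (adjusted p = 0.0698, edgeR). Atp5k (subunit e of complex V, chr5:108433244-108434448) went from 4.417, 5.843 and 5.263 CPM to 11.23, 9.101, 9.779 and 20.17. Those groups were apart too, at 1.28 ± 0.35 (adjusted p = 0.126, edgeR). Cox5b of complex IV gave 0.88 ± 0.28 (adjusted p = 0.211), Ndufa3 of complex I 1.08 ± 0.32 (adjusted p = 0.176) and Sdhb of complex II 0.53 ± 0.20 (adjusted p = 0.313), all by edgeR. The nuclear medians were 0.86 in complex IV, 0.72 in complex V, 0.62 in complex III, 0.57 in complex I and 0.39 in complex II. In replicate 4 of GW-CBD-LPS Uqcr11 and Atp5k were each highest, and without that library the nuclear median was 0.39, with 74 of 75 positive, and 19 members stood at an unadjusted p under 0.05 (7.06% of all genes). The 5 astrocyte markers summed to 40.81 to 51.68 CPM in GW-CBD-LPS and to 18.94 to 28.0 in GW-CBD-PBS, with no overlap and no marker at 0. Neutrophil markers summed to 1.502 to 12.34 CPM with LPS and 14.4 to 153.7 with PBS. The part of these markers in the results was not tested.

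CBD without LPS, GW-CBD-PBS against GW-PBS, gave values of the opposite sign. This comparison shares the GW-CBD-PBS libraries with the one before, so the 2 are not independent. edgeR called no member and no gene at all (0.0% higher, 0.0% lower), DESeq2 called none, and limma voom called 7 members lower (0.906% of all genes). At an unadjusted p under 0.05, 59 of 75 nuclear members were lower and 0 of 10 mitochondrial ones (7.08% of all genes). In 29 members every CBD library lay below every GW-PBS library (5.0% of all genes). The nuclear median was -0.75 and the mitochondrial -0.38, against -0.03 for all genes. By complex it was -0.86 in complex IV, -0.81 in complex III, -0.74 in complex I, -0.60 in complex V and -0.43 in complex II.

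Uqcr11 was at 107.3, 44.78, 52.37 and 60.76 CPM in GW-PBS, above its 3 GW-CBD-PBS values, a log2 difference of -1.05 ± 0.30 (adjusted p = 0.524, edgeR). Cox7a2 (complex IV) was at 110.1, 40.96, 47.28 and 62.3 CPM in GW-PBS and at 28.12, 40.42 and 31.78 with CBD. Its groups were apart by less than 1 CPM at their nearest libraries, and its log2 difference was -0.96 ± 0.31 (adjusted p = 0.524, edgeR). Ndufa7 (complex I) gave -0.98 ± 0.27 and Atp5k -1.15 ± 0.35, each with an adjusted p of 0.524 by edgeR. Sdha (0.09 ± 0.11) and Ndufs1 (0.15 ± 0.13) had positive values. In each of Uqcr11, Cox7a2, Ndufa7 and Atp5k, GW-PBS replicate 1 was the highest library of its group. Without it the nuclear median was -0.41, with 71 of 75 members not positive and 14 at an unadjusted p under 0.05 (3.18% of all genes). The mitochondrial median without it was -0.00, with 5 of 10 positive. Summed microglial markers were higher in every GW-CBD-PBS library (41170 to 43810 CPM) than in any GW-PBS library (34620 to 40570). Ribosomal protein genes summed to less in every GW-CBD-PBS library (4709 to 5695 CPM against 5700 to 11250). So did mitochondrial ribosomal RNA (97.29 to 128.7 CPM against 131.7 to 409.6). The part of these sums in the results was not tested.

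**Figure D4:**
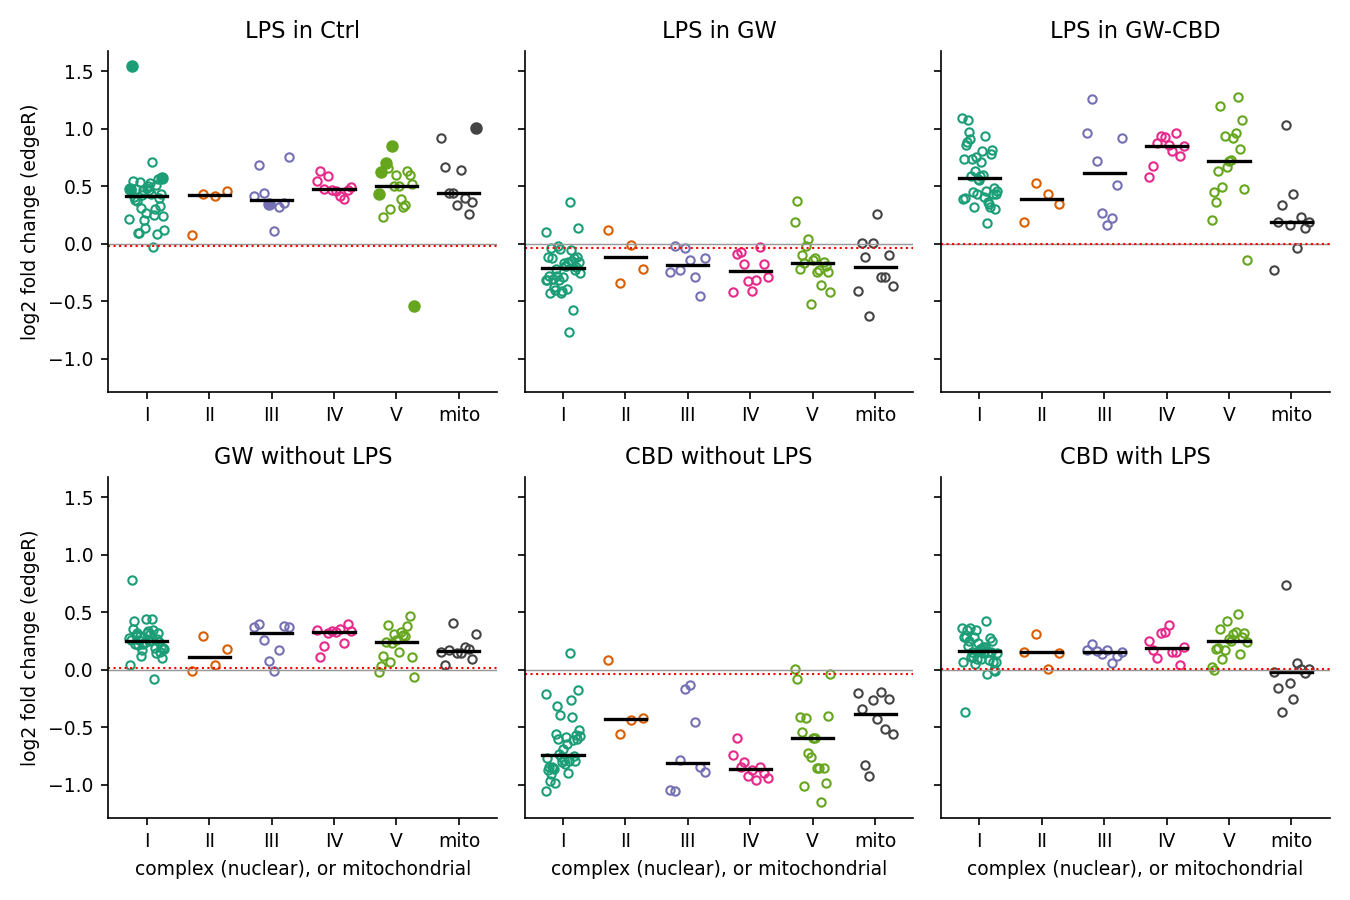
Log2 fold change (edgeR) of each of the 85 tested members in 6 comparisons, by complex for nuclear members and together for mitochondrial ones. Filled points passed the adjusted threshold, black bars are medians and the dotted line is the median of all genes. Nuclear members lie mostly above 0 for LPS in GW-CBD (median 0.64) and below 0 for CBD without LPS (median -0.75), with the mitochondrial members nearer to 0.

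Exposure alone, GW-PBS against Ctrl-PBS, gave no called member with edgeR, DESeq2 or limma voom (0.0% of all genes with edgeR), and none at an unadjusted p under 0.05 (3.75% of all genes). The median was 0.25, with 80 of 85 positive (53.2% of all genes), and without GW-PBS replicate 1 the nuclear median was -0.03 and the mitochondrial -0.23. Without the 3 libraries with raised neutrophil markers they were -0.01 and -0.27. Without GW-PBS replicate 2 the nuclear median was 0.40, with 6 members at an unadjusted p under 0.05 (6.47% of all genes). Ndufa12 had the largest nuclear value, 0.78 ± 0.38 (adjusted p = 1.0, edgeR). Its values were 18.76, 38.35, 16.73 and 15.91 CPM in Ctrl-PBS and 56.56, 24.9, 32.54 and 40.74 in GW-PBS, so the groups overlapped.

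Exposure with LPS, GW-LPS against Ctrl-LPS, also gave no called member with edgeR, DESeq2 or limma voom (0.0% of all genes with edgeR). At an unadjusted p under 0.05 there were 17 members (13.7% of all genes). Negative values were seen in 82 of 85 members (50.9% of all genes), with a median of -0.39 against -0.01 for all genes. Sdhd was at 300.8, 189.4, 212.2 and 298.0 CPM in Ctrl-LPS and at 178.6, 171.4 and 181.1 in GW-LPS. It did not overlap, at -0.50 ± 0.18 (adjusted p = 0.323, edgeR), and Ndufs3 of complex I, the other such member (6.25% of all genes), gave -0.51 ± 0.20 (adjusted p = 0.324, edgeR). The size of these values varied with the libraries. Without GW-LPS replicate 3 the nuclear median was -0.20 and the mitochondrial -0.24, and 1 member stood at an unadjusted p under 0.05 (11.2% of all genes). Without Ctrl-LPS replicate 1 the nuclear median was -0.24, with 2 nuclear members at that p (6.54% of all genes), and without Ctrl-LPS replicate 4 there were 4 (8.63%). Without Ctrl-LPS replicate 2 there were 29 nuclear members (18.4% of all genes). With the 3 neutrophil-marked libraries left out the nuclear median was -0.24 and the mitochondrial -0.35, with 3 nuclear members at that p (8.33% of all genes). The interaction of exposure and LPS, the difference between the LPS effects in GW and control mice, had a nuclear median of -0.66 and a mitochondrial one of -0.61. No member was called in it by edgeR, DESeq2 or limma voom (0.0% of all genes with edgeR), 21 stood at an unadjusted p under 0.05 (12.7% of all genes), and the smallest adjusted p was 0.353. Ndufa12 gave -1.66 ± 0.56, mt-Nd6 -1.38 ± 0.50 and Cox4i1 -0.97 ± 0.37. Without GW-PBS replicate 1 the nuclear median of the interaction was -0.34, and 3 members stood at an unadjusted p under 0.05 (7.41% of all genes). With each other library left out it lay between -0.82 (without GW-PBS replicate 2, 50 nuclear members at that p, 20.9% of all genes) and -0.48 (without GW-LPS replicate 3, 4 nuclear members, 10.6%). Without the 3 libraries with raised neutrophil markers it was -0.22, with no member at that p (5.25% of all genes).

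CBD with LPS, GW-CBD-LPS against GW-LPS, gave no called member with edgeR (1.06% of all genes higher, 1.24% lower) or DESeq2, and none at an unadjusted p under 0.05 (14.4% of all genes). limma voom called 2 lower, mt-Nd1 and Ndufa12 (10.0% of all genes). The nuclear median was 0.17 and the mitochondrial -0.02. Without GW-CBD-LPS replicate 4 the nuclear median was -0.03 and the mitochondrial -0.15, and with each of the other 6 libraries left out the nuclear median lay between 0.05 (without GW-LPS replicate 3) and 0.30. Summed microglial markers were higher in every GW-CBD-LPS library (34190 to 41900 CPM) than in any GW-LPS library (28130 to 33110). So were astrocyte markers (40.81 to 51.68 against 24.08 to 36.9) and endothelial ones (26.09 to 33.4 against 14.35 to 21.95). Neutrophil markers were lower in every GW-CBD-LPS library (1.502 to 12.34 CPM against 14.56 to 221.2). The part of these markers was not tested. For Atp5b the difference was -0.01 ± 0.12, and its values in both groups (757.9 to 1072 CPM with CBD, 771.1 to 997.0 without) covered the same range. The interaction of CBD and LPS compares the LPS effects of GW-CBD and GW mice, and shares its libraries with the comparisons above. Its nuclear median was 0.90 and its mitochondrial median 0.24, with 54 members at an unadjusted p under 0.05 (15.3% of all genes). edgeR called no member (0.0121% of all genes higher), DESeq2 called Atp5k (1.45% higher), and limma voom called 19 members higher (7.74% of all genes). Atp5k gave the smallest adjusted p, 0.157, at 1.64 ± 0.48 (edgeR), followed in complex I by Ndufa1 at 1.41 ± 0.46 (adjusted p = 0.191, edgeR). Without GW-PBS replicate 1 the nuclear median was 0.62, with 23 members at an unadjusted p under 0.05 (11.3% of all genes), and the mitochondrial median was -0.10.

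The size of the difference varied with transcript length among nuclear members. For CBD without LPS, the 48 members with transcripts under 1000 bp had a median of -0.83 and the 27 longer ones -0.41. Over all protein-coding genes tested, the 1202 shorter ones had a median of -0.48 and the 12259 longer ones 0.01. For LPS in GW-CBD mice the member medians were 0.77 (shorter) and 0.37 (longer), and those of all protein-coding genes 0.24 and -0.01. For LPS in control mice they were 0.47 and 0.39 in members and 0.19 and -0.04 in all protein-coding genes. In these 3 comparisons both length classes of members lay farther from 0 than the same class of all protein-coding genes. For LPS in GW mice short members did not, at -0.23 against -0.25, and longer ones were at -0.10 against 0.00. In each of the 9 contrasts, with or without CBD, short transcripts had medians farther from 0 than long ones. This held in members and in all protein-coding genes alike. For exposure without LPS, for example, the medians were 0.31 and 0.14 in members and 0.17 and 0.00 in all protein-coding genes. The part of transcript length in these differences was not tested.

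**Figure D5:**
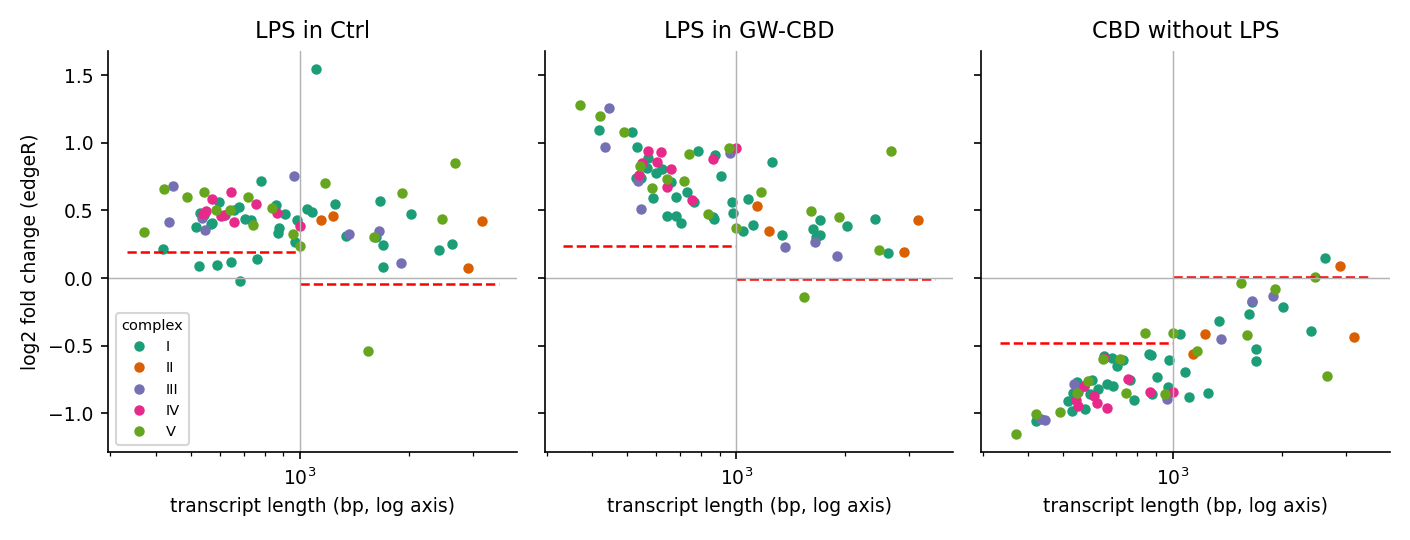
Log2 fold change (edgeR) of each nuclear member against its transcript length (bp, log axis), coloured by complex, in 3 comparisons. The red dashed lines are the medians of all protein-coding genes tested under 1000 bp and from 1000 bp up, and for CBD without LPS the members' median was -0.83 below that length and -0.41 above it.

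Ribosomal protein genes, like the nuclear members, had their lowest group mean in GW-CBD-PBS and their highest in Ctrl-LPS. The order between these differed: GW-CBD-LPS lay below GW-PBS and GW-LPS for ribosomal proteins and above both for nuclear members. The sum of 84 ribosomal protein genes averaged 6485 CPM in Ctrl-PBS, 10510 in Ctrl-LPS, 7749 in GW-PBS, 7949 in GW-LPS, 5150 in GW-CBD-PBS and 7585 in GW-CBD-LPS. In GW-PBS it was 11250 in replicate 1 and 5700 to 7044 in the others, and in GW-CBD-LPS it was 10990 in replicate 4 and 6016 to 7003 in the others. The libraries that stood out for the nuclear members therefore also stood out for ribosomal proteins. Their part in the results was not tested. Over 9154 genes outside the rule and 22 libraries, the genes whose log2 CPM most resembled the nuclear sum were Nedd8 (Pearson r 0.993), Tmem160 (0.99), Smdt1 (0.988), Rplp2 (0.986) and Rpl28 (0.985). Those most like the mitochondrial sum were Ppdpf (0.883), Rpl22 (0.88), Srp14 (0.877), Fcer1g (0.875) and Capns1 (0.874). These values describe the 22 libraries, which share groups and differences in composition.

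Genes around the chain were read from lists set beside the members. Of 16 tested electron carriers and subunits outside the rule, 5 rose with LPS in control mice, where 10.8% of all genes did. Cycs (cytochrome c) went from 50.19 ± 5.24 CPM (SD, n = 4) to 91.26 ± 27.9 (n = 4), a log2 fold change of 0.86 ± 0.22 (adjusted p = 0.00777, edgeR). Dhodh, which feeds electrons to ubiquinone in pyrimidine synthesis, rose in control (0.69 ± 0.13, adjusted p = 0.000651) and in GW mice (0.45 ± 0.14, adjusted p = 0.0416). Cox6a2, Cyc1 and Etfb were the others. In all, 12 of these 16 genes had positive values in control mice (48.8% of all genes) and 6 in GW mice (47.1% of all genes).

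Among assembly factors, for LPS in control mice, where 10.8% of all genes rose, 2 of 15 complex I factors rose (Ecsit, 0.80 ± 0.13, adjusted p = 0.000218, and Ndufaf4), 1 of 13 for complexes II, III and V (Ttc19, 0.53 ± 0.13, adjusted p = 0.00703) and 3 of 20 for complex IV (Cox10, 0.61 ± 0.14, adjusted p = 0.00366, Coa7 and Cox18). Ecsit, an assembly factor of complex I that also serves in Toll-like receptor signalling, rose in GW mice too (0.57 ± 0.14, adjusted p = 0.0136, edgeR). With CBD and LPS, Ecsit was at 15.97 ± 1.65 CPM (n = 4) against 27.46 ± 1.74 (n = 3) in GW-LPS and fell by 0.78 on the log2 scale (adjusted p = 0.00428, edgeR). Ttc19, a complex III factor, fell by 0.55 in the same comparison (adjusted p = 0.0416, edgeR). Ecsit and Ttc19 were 1 of 15 and 1 of 13 tested genes of their lists. For CBD with LPS, edgeR called no member of complex I or III, where 1.06% of all genes were higher and 1.24% lower.

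Genes that feed the chain and import its subunits were called with LPS in both control and GW mice. Of 18 genes of pyruvate dehydrogenase and the tricarboxylic acid cycle, 6 rose with LPS in control mice (10.8% of all genes) and 5 in GW mice (4.45%). Idh3a, a subunit of NAD-dependent isocitrate dehydrogenase, rose by 1.11 ± 0.15 (adjusted p = 3.41e-05) and 0.70 ± 0.16 (adjusted p = 0.0101). Cs (citrate synthase) rose in GW mice by 0.52 ± 0.11 (adjusted p = 0.00447), and Mdh2 (malate dehydrogenase) in control mice by 0.75 ± 0.18 (adjusted p = 0.00473). Of 23 import genes 9 rose in control and 2 in GW mice, all by edgeR, against the same shares of all genes. Tomm40, the channel of the outer membrane, rose by 1.11 ± 0.16 (adjusted p = 5.97e-05) in control mice, and Hspd1, a matrix chaperone, by 0.81 ± 0.15 (adjusted p = 0.000822) in control and 0.79 ± 0.16 (adjusted p = 0.00464) in GW mice.

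Of 25 genes for mitochondrial DNA and RNA, 2 rose in control mice (10.8% of all genes), and 2 rose (4.45%) and 1 fell (5.07%) in GW mice. Pnpt1, a mitochondrial RNA-degrading enzyme, rose by 0.77 ± 0.18 (adjusted p = 0.00361) in control and 0.77 ± 0.19 (adjusted p = 0.013) in GW mice. Tefm, the mitochondrial transcription elongation factor, fell by 0.51 (adjusted p = 0.0251, edgeR) in GW mice. Among 11 biogenesis regulators, Myc rose with LPS by 1.65 ± 0.22 (adjusted p = 2.33e-05) in control and 0.88 ± 0.23 (adjusted p = 0.0199) in GW mice, and fell by 1.01 with CBD in the presence of LPS (adjusted p = 0.0213, edgeR). Gabpb1, the partner of the ETS factor GABPA, fell by 0.75 (adjusted p = 0.000933) and 0.54 (adjusted p = 0.033) with LPS in control and GW mice. No gene of these lists was called by edgeR for LPS in GW-CBD mice or for CBD without LPS. None was called for exposure, with or without LPS, or in either interaction. Few of all genes were called there: 0.393% higher and 0.0242% lower for LPS in GW-CBD mice. In the CBD by LPS interaction 0.0121% were higher and 0.00604% lower, and in the others 0.0%.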

How the data were processed

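Microglia from 22 samples in 6 groups were compared, with groups taken from the labels and libraries numbered as in their names. The authors deposited 1 table of whole-number read counts per gene, on GRCm38 (mm10) per the submitters' processing notes. The sources used here do not give the aligner, the counter or its strand setting. Counts were tested with edgeR 4.0.16 under R 4.3.3 (quasi-likelihood, TMM, filterByExpr, 16554 genes, 6 group means, 9 contrasts, two-sided, Benjamini-Hochberg adjusted p under 0.05). CPM of single genes use TMM factors and summed CPM use library totals. Lengths and positions are from GENCODE M21, in which 54495 of 54532 identifiers were found, and a gene's length is the median of its principal transcripts. Nuclear copies were found with blastn 2.17.0.

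Alternatives were RLE factors, library sizes from nuclear genes, no filter, DESeq2 1.42.0, limma voom (3.58.1) with quality weights, the compared groups alone, the replicate block, the fit without 3 libraries with raised neutrophil markers, and each library left out. Tests were tried on simulated data. Named are, per comparison and class, the 2 called members with the smallest p in each direction, or the member with the smallest p, with index subunits, extremes of level and 2 called genes per list. Not all are printed, and 1 result is not reported here. Members and lists were chosen with earlier results of these data known. Libraries sharing a number were checked for pairing: 11 of 51 pairs correlated above 0.1 (from -0.285 to 0.315), so numbers were not taken to pair samples.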

Additional observations from a re-analysis of the deposited data

Results flagged for a closer look

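In 88 groups of 4 libraries that were checked for the sums and the 14 index subunits, 2 values stood far from the rest of their group, and chance alone gives about 1 in 20. Cox5a, a nuclear subunit of complex IV, was at 77.28 CPM in GW-CBD-LPS replicate 4 and at 38.86 to 39.55 in the other 3 libraries. Ndufs1 was at 93.85 CPM in Ctrl-LPS replicate 3 and at 78.87 to 81.41 in the others.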

How the results depend on the processing

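For LPS in control mice, the 10 calls became 48 with limma voom, 8 with the replicate block (9.90% of all genes higher), 3 without the neutrophil-marked libraries (Ctrl-PBS replicate 3, Ctrl-LPS replicate 1 and GW-PBS replicate 1; 7.11%), and 4 (without Ctrl-LPS replicate 1, 7.15%) to 20 (without Ctrl-LPS replicate 2, 11.6%) with 1 library left out. Without Ctrl-PBS replicate 3 (8.65%) or 4 (7.91%) or Ctrl-LPS replicate 4 (8.63%), 5 were called, and without Ctrl-PBS replicate 1 (8.02%), 6. For LPS in GW mice, 0 calls became 1 with DESeq2, 2 with limma voom and 0 to 1 with a library left out. For LPS in GW-CBD mice, 0 became 1 without a filter (Uqcr11, 0.316%), 12 with DESeq2, 63 with limma voom, 3 without the neutrophil-marked libraries (Uqcr11, Atp5e and Atp5k) and 0 to 2 with a library left out (at most 1.2% of all genes). For CBD without LPS limma voom called 7, for CBD with LPS 2, and for the CBD by LPS interaction 19, where DESeq2 called 1. The replicate block gave 0 calls in the 8 other comparisons, and only 5 of 22 libraries correlated best with a library of their own number. The log2 difference of the nuclear sum for CBD without LPS was -0.35 from library totals and -0.60 as a mean of log2 values. The cause of these differences was not tested. mt-Nd3, mt-Nd4l and mt-Atp8, with 16 to 61 counts in all, could not be compared at this depth.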
